A study of Homo sapiens with 12 samples.

Results

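The mRNA levels of 43 genes for lysosomal enzymes, lysosomal membrane proteins, subunits of the lysosomal proton pump and regulators of lysosomal genes were compared in sublines of HMC-1, a human mast cell line with oncogenic mutations in the receptor KIT. The genes were given as a list of symbols and matched by symbol, and all 43 were found among the 58381 genes listed. All 43 also passed the filter on low counts, with 15944 genes tested in all. Polyadenylated RNA had been sequenced in 12 libraries, 3 from each of 4 groups. The KIT mutation of HMC-1.1 is V560G, and HMC-1.2 has both V560G and D816V. HMC-1.3 clone 1 and HMC-1.3 clone 2 were derived from HMC-1.2 by reversing V560G with CRISPR/Cas9 and retain D816V-KIT on 1 allele. Each HMC-1.3 group is 1 clone, and no clone of HMC-1.2 isolated in the same way was analysed here, so an effect of the edit and an effect of picking a clone cannot be told apart. HMC-1.2 against either HMC-1.3 clone asks what changes when V560G is removed beside D816V, and HMC-1.1 against HMC-1.2 compares V560G alone with both mutations. Nothing in the labels says whether the 3 libraries of a group came from separate cultures. The paper's methods state that each line or clone was plated in triplicate before RNA was extracted. The p-values measure the spread between these parallel libraries, which may be mostly technical, and not that between clones or repeated experiments.

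Lysosomes are acidic organelles in which hydrolases break down proteins, glycans, glycosaminoglycans and lipids. A proton pump acidifies them, heavily glycosylated membrane proteins line them, and transporters release the breakdown products. Mast cell granules are lysosome-related organelles, and they hold lysosomal hydrolases beside histamine, heparin and mast cell proteases. Many lysosomal genes are controlled by the transcription factors TFEB and TFE3, which bind the sequence CACGTG in promoters and are themselves regulated mainly by their location in the cell.

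Total expected counts ran from 29225900 to 43181402 per library, and no pair of libraries within a group was alike within sampling noise, with chi-square values per degree of freedom of 2.88 to 8.01. The mast cell label was checked against 10 markers. KIT ran from 346 to 469 FPKM in the 12 libraries, and its level does not bear on the edited base. HDC, the histamine-forming enzyme, had a mean of at least 852 FPKM in every group, and GATA2 and SRGN were also high. The high-affinity IgE receptor chains FCER1A and MS4A2 had means of at most 1.09 FPKM and 0.353 FPKM, and CMA1, the mast cell chymase, was near 0. The summed level of the 10 markers ran from 2457.2 to 2482.4 FPKM in HMC-1.2 and from 1698.7 to 1810.8 FPKM in the other 3 groups. Most of the difference between these sums came from the tryptase gene TPSAB1, with a mean of 592 FPKM in HMC-1.2 and 29.4 to 44.2 FPKM elsewhere. HDC, with 1010 FPKM in HMC-1.2 and 852 to 895 FPKM elsewhere, was also higher there. So was SRGN, with 203 FPKM against 153 to 168 FPKM. TPSB2, also a tryptase gene, had 96.6 FPKM in HMC-1.2 and 35 to 40.7 FPKM elsewhere. Such genes share reads with near-identical copies, and the part of this was not tested. CPA3, KIT and GATA2 went the other way, CPA3 with 3.31 FPKM in HMC-1.2 and 7.52 to 10.9 FPKM elsewhere. Of 8 markers of monocytes, macrophages and neutrophils, MPO was at 0 in every library, and CD14, CSF1R, CD163 and ELANE had means of at most 0.08 FPKM. The sum of the 8, mostly ITGAM, ran from 16.8 to 19.4 FPKM in HMC-1.2, 20.8 to 22.9 FPKM in HMC-1.1, 19.8 to 23.0 FPKM in clone 1 and 18 to 19.3 FPKM in clone 2, and its part in the results was not tested. FCGR1A went the other way, with a mean of 1.45 FPKM in HMC-1.2 and 0.2 to 0.58 FPKM in the other groups, and LYZ had means of 1.6 to 2.15 FPKM.

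Promoter sequence was read for the members because TFEB and TFE3 are among them. RefSeq promoter windows on GRCh38.p14, from 250 bases before to 50 bases after the annotated start, were given for 30 of the 43 members, with 37 windows in all. CACGTG, which reads the same on both strands, was found in 8 of the 37 windows, or 21.6%, against 7.26% of all 35116 windows of the same length and 9.39% of the windows of genes tested. The longer palindrome TCACGTGA, each match of which also holds CACGTG, was found in 6 of the 37 windows, or 16.2%, against 0.98% of all windows and 1.63% of those of genes tested. A match is a description of the sequence and not a bound site. The 8 members with CACGTG are shown, since their changes are set against those of TFEB and TFE3 below, each as 100 bases, 5' to 3' in the direction of transcription, with CACGTG in capitals.
LAMP1, chr13:113297145-113297244, plus strand: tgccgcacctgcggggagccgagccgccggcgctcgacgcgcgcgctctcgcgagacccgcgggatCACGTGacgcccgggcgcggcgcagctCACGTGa
MCOLN1, chr19:7522530-7522629, plus strand: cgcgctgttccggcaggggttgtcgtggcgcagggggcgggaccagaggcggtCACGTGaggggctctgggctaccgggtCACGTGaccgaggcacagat
CTSA, chr20:45891241-45891340, plus strand: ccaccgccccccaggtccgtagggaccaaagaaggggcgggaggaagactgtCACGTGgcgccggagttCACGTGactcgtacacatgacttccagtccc
CTSD, chr11:1763922-1764021, minus strand: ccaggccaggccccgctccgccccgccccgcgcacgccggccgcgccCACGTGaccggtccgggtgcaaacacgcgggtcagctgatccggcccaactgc
GAA, chr17:80101487-80101586, plus strand: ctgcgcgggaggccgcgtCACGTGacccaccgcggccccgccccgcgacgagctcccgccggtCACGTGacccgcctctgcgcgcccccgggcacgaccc
GALNS, chr16:88856942-88857041, minus strand: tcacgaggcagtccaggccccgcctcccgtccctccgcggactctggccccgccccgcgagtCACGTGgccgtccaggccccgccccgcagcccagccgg
ARSB, chr5:78986053-78986152, minus strand: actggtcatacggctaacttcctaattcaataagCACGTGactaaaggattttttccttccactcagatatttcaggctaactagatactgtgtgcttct
ATP6V0D1, chr16:67481152-67481251, minus strand: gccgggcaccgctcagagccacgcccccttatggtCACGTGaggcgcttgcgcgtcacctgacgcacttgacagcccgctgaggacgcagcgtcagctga

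In the LAMP1 window 6 matches were found in all, of which the lines above show 2. GALNS had 1 further match upstream of the bases shown. The remaining 22 members with a window, TFEB, TFE3, CTSH, FUCA2 and GLA among them, had no CACGTG in these windows.

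The members were well expressed and most differed little between the groups. Over the 12 libraries, the median member had 39.1 FPKM, against 9.02 FPKM for the median gene tested, and 20 of the 43 had a mean above 50 FPKM. The precursor of the saposins, PSAP, had the highest mean with 344 FPKM, followed by the cholesterol-binding protein NPC2 with 254 FPKM and the aspartic protease CTSD with 174 FPKM. Legumain, LGMN, was the lowest with 0.281 FPKM. A member is said to be called where edgeR's quasi-likelihood test on the counts gave an adjusted p under 0.05 over all genes tested and the fold change was over 1.5. By this rule 12 members were called in at least 1 of 6 comparisons and 31 in none. LGMN is 1 of the 12, and its few reads limit its calls, as given below.

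In HMC-1.3 clone 1 against HMC-1.2, 8 of the 43 members were called, against 20.0% of all genes tested. Of these, 5 were higher (HEXA, MANBA, FUCA2, NAGLU and IDUA, all enzymes that cut sugars from glycans or glycosaminoglycans), against 11.8% of all genes. The other 3 were lower (CTSH, CTSL and LGMN, all cysteine proteases), against 8.18% of all genes. LGMN had few reads and passed the filter mainly through HMC-1.2, so its call leans on that group. In HMC-1.3 clone 2 against HMC-1.2, 3 members were called, against 16.5% of all genes. All 3, CTSS, FUCA2 and ARSB, were higher, against 7.98% of all genes. No member was called lower by edgeR in clone 2, against 8.51% of all genes; 12 members were lower at an unadjusted p under 0.05, none of them by over 1.5-fold, and DESeq2 and limma also called 0.

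Between HMC-1.1 and HMC-1.2, 5 members were called, against 17.6% of all genes. FUCA2 and NAGLU were higher, against 10.1% of all genes called higher, and CTSH, CTSL and LGMN were lower, against 7.52%. The limit on LGMN holds here too. These 3 comparisons share the HMC-1.2 libraries. FUCA2 was the 1 member called in both HMC-1.3 clones in 1 direction, against 10.4% of all genes. In clone 1 the share of members called was close to that of all genes, and DESeq2 called 9 members there, with 3068 of all genes called.

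**Figure D1:**
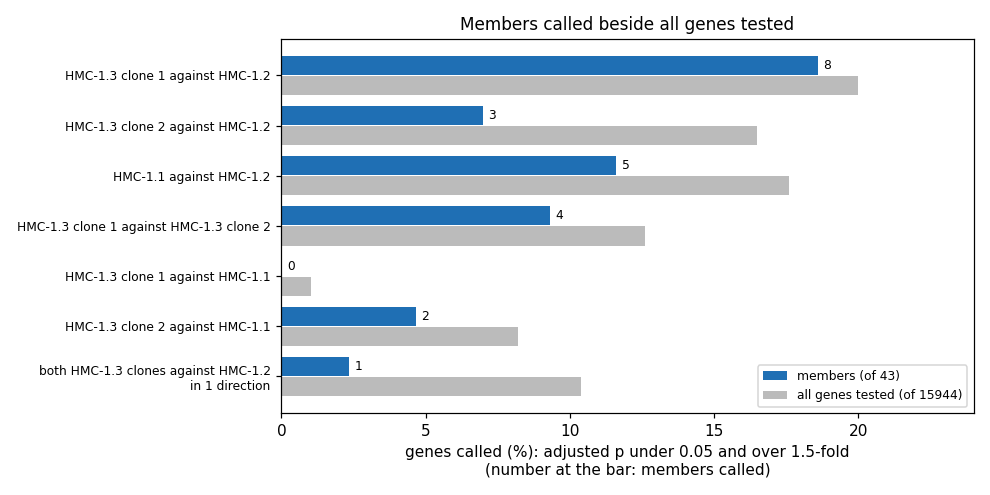
Percent of genes called (adjusted p under 0.05 and over 1.5-fold, x axis) in each comparison, for the 43 members (blue, with the number called at the bar) and for all 15944 genes tested (grey). The blue bar is shorter than the grey bar in every comparison by edgeR, most nearly equal in HMC-1.3 clone 1 against HMC-1.2 with 18.6% against 20.0%.

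Small differences that passed the adjusted p alone were common. In clone 1 against HMC-1.2 they were seen for 33 members, 22 higher and 11 lower, against 59.4% of all genes. In clone 2 they were seen for 30 members, 18 higher and 12 lower, against 48.5% of all genes. In HMC-1.1 they were seen for 36 members, 21 higher and 15 lower, against 53.7%. The members had more reads than the median gene, and the part of depth in these counts was not tested. The sizes were modest: the median absolute log2 change was 0.25 for the members and 0.29 for all genes in clone 1, 0.17 and 0.21 in clone 2, and 0.19 and 0.24 for HMC-1.1. The median signed log2 change of the members was 0.11 in clone 1, 0.07 in clone 2 and, for HMC-1.1, 0.08, against medians of 0.01, 0 and 0.01 for all genes.

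**Figure D2:**
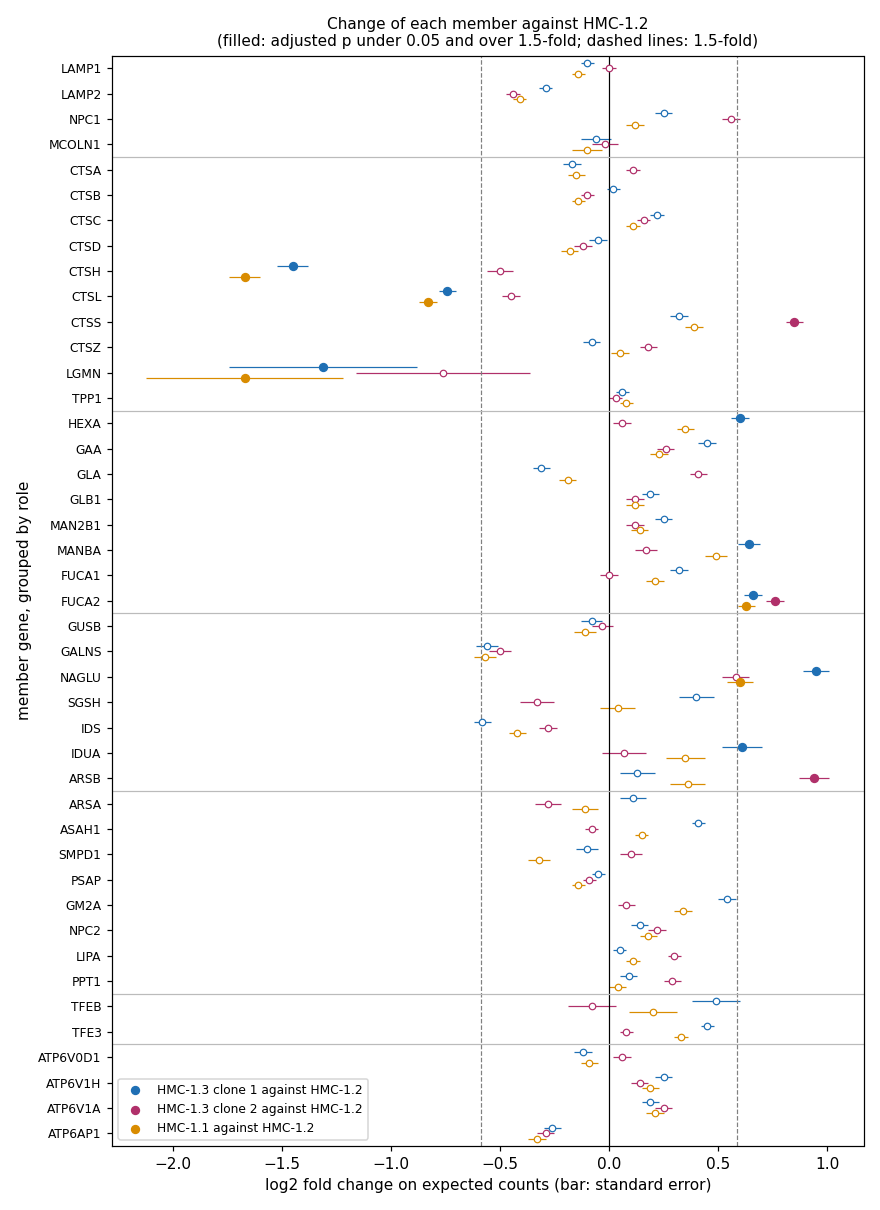
Log2 fold change on expected counts against HMC-1.2 (x axis, bars: standard error) for each of the 43 members, in HMC-1.3 clone 1 (blue), HMC-1.3 clone 2 (pink) and HMC-1.1 (orange); filled points were called and dashed lines mark 1.5-fold. Most points lie between the dashed lines, and the longest bars belong to LGMN, which had the fewest reads.

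Among the 4 membrane proteins, none was called against HMC-1.2. LAMP1, the most abundant of them and a standard marker of lysosomes, had means of 95.7 to 104 FPKM in the 4 groups. Its log2 change against HMC-1.2 lay between -0.14 in HMC-1.1 and 0 in clone 2. LAMP2, its relative that also serves in chaperone-mediated autophagy, had 57 FPKM in HMC-1.2 and 41.4 to 46.2 FPKM in the other groups. It fell in all 3 comparisons with HMC-1.2, with log2 changes of -0.29 in clone 1, -0.44 in clone 2 and, for HMC-1.1, -0.41 (SE 0.03 in each). NPC1, which exports cholesterol from the lysosome, rose by 0.56 ± 0.04 (SE) on the log2 scale in clone 2 (edgeR adjusted p 1.1e-09), just under 1.5-fold. The changes of NPC1 in clone 1 (0.25) and HMC-1.1 (0.12) were smaller. The cation channel MCOLN1 had means of 14.0 to 15.1 FPKM and passed the adjusted p in none of the 3 comparisons.

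The 10 proteases held the largest differences. Cathepsin H, CTSH (chr15:78921058-78949574, minus strand, on GRCh38 as are all gene positions here), an aminopeptidase, had 172.87, 160.82 and 164.74 FPKM in the 3 HMC-1.2 libraries. In HMC-1.1 the values were 53.45, 51.13 and 58.8 FPKM. In clone 1 they were 67.31, 61.41 and 61.09 FPKM, and in clone 2 they were 131.34, 125.93 and 113.05 FPKM. In bulk RNA, fewer cells with a transcript and less of it per cell cannot be told apart. No library of HMC-1.1 or either clone reached the lowest HMC-1.2 library, and clone 2 lay between HMC-1.2 and the other groups without overlap. On the counts, CTSH fell by 1.45 on the log2 scale in clone 1 (SE 0.07, edgeR adjusted p 8.3e-12), to 0.366 times its HMC-1.2 level. It fell by 1.67 in HMC-1.1 (SE 0.07, edgeR adjusted p 1.7e-12). The fall in clone 2, by 0.5 (SE 0.06, edgeR adjusted p 5.3e-06), was under 1.5-fold.

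Cathepsin L, CTSL (chr9:87724051-87731469, plus strand), a cysteine endopeptidase, followed the same order at a smaller size. It had 88.98, 78.3 and 83.46 FPKM in HMC-1.2 and 49.47, 46.38 and 49.88 FPKM in HMC-1.1. Clone 1 had 52.66, 51.4 and 52.86 FPKM, and clone 2 had 61.48, 65.09 and 60.39 FPKM. All HMC-1.2 libraries were above all others, and the clone 2 libraries were above those of HMC-1.1 and clone 1. The log2 changes on the counts were -0.74 ± 0.04 in clone 1 (SE, edgeR adjusted p 2.4e-10), -0.83 ± 0.04 in HMC-1.1 (SE, edgeR adjusted p 6.9e-11) and -0.45 ± 0.04 in clone 2 (SE, edgeR adjusted p 1.8e-07).

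Cathepsin S, CTSS (chr1:150730079-150765957, minus strand), which trims the invariant chain of class II molecules in antigen-presenting cells, moved the other way. It had 83.36, 80.58 and 80.13 FPKM in HMC-1.2, and 171.77, 175.32 and 152.74 FPKM in clone 2. HMC-1.1, with 112.83 to 114.98 FPKM, and clone 1, with 118 to 118.77 FPKM, lay in between. No clone 2 library overlapped any other group. CTSS rose by 0.85 ± 0.04 on the log2 scale in clone 2 (SE, edgeR adjusted p 1.9e-12). The rises of 0.32 in clone 1 and 0.39 in HMC-1.1 were under 1.5-fold. The ratio of mean FPKM was larger than the change on counts by 0.22 on the log2 scale in clone 1 and 0.19 in clone 2, and the count test is the one reported.

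Legumain, LGMN (chr14:92703807-92748679, minus strand), which cuts after asparagine and processes several cathepsins, was barely detected. Expected counts were 17, 18 and 9 in HMC-1.2 and 6, 4 and 6 in HMC-1.1. Clone 1 had counts of 8, 6 and 6, and clone 2 of 6, 8 and 18. It passed the filter through these few reads, which were highest in HMC-1.2 and in 1 clone 2 library, so its calls lean on the group in which it was high. The log2 changes were -1.31 ± 0.43 in clone 1 (SE, edgeR adjusted p 0.015) and -1.67 ± 0.45 in HMC-1.1 (SE, edgeR adjusted p 0.0045). The call in clone 1 was lost without HMC-1.2 replicate 2 (log2 change -1.1, edgeR adjusted p 0.072) or without clone 1 replicate 2 (-1.23, edgeR adjusted p 0.052). On log2(FPKM + 0.1) limma called LGMN in neither clone 1 (adjusted p 0.19) nor HMC-1.1 (adjusted p 0.059).

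The other 6 proteases were steadier. CTSC, which activates granule serine proteases, rose by 0.22 in clone 1, 0.16 in clone 2 and, for HMC-1.1, 0.11 on the log2 scale. CTSA, CTSB, CTSD, CTSZ and TPP1 lay within 0.2 of 0 on the log2 scale against HMC-1.2 in all 3 groups. CTSD, with 187.64, 183.34 and 173.12 FPKM in HMC-1.2, had group means of 164 to 177 FPKM elsewhere. CTSA, the carboxypeptidase that protects beta-galactosidase, moved in opposite directions in the clones, with log2 changes of -0.17 in clone 1 (edgeR adjusted p 5.1e-04) and 0.11 in clone 2 (edgeR adjusted p 0.013).

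**Figure D3:**
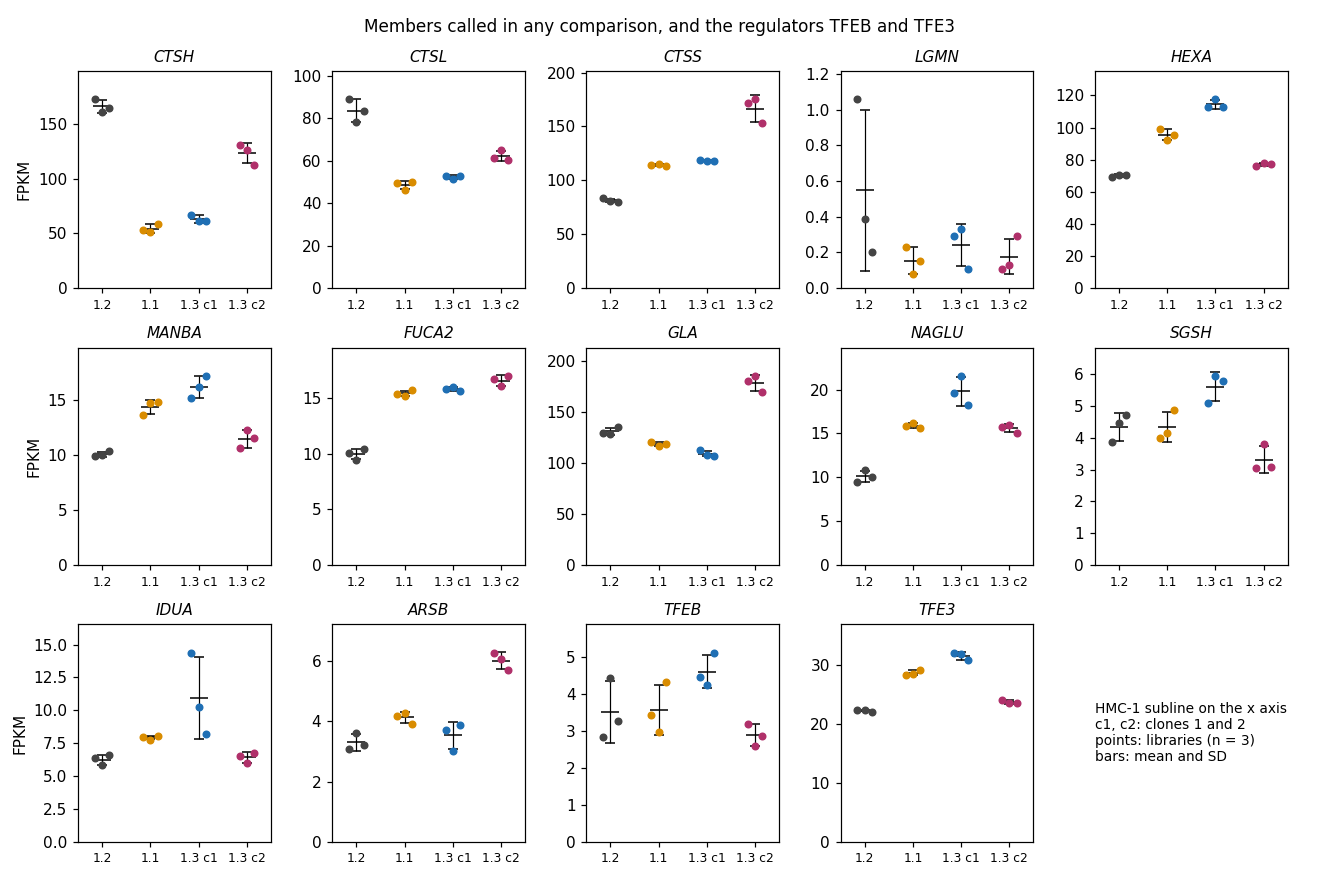
FPKM (y axes, from 0) in each library for the 12 members called in any comparison and for TFEB and TFE3, by subline on the x axis (points: libraries, n = 3 a group; bars: mean and SD). CTSH and CTSL were highest in HMC-1.2, CTSS, GLA and ARSB in clone 2, and HEXA, MANBA, NAGLU, SGSH and TFE3 in clone 1.

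Of the 8 glycosidases, 7 passed the adjusted p as higher in clone 1 than in HMC-1.2 and 1, GLA, as lower, where 59.4% of all genes passed in either direction. In HMC-1.1 the numbers were also 7 and 1, and in clone 2 they were 6 higher and 0 lower, with FUCA1 and HEXA not passing, against 53.7% and 48.5% of all genes. Alpha-L-fucosidase 2, FUCA2 (chr6:143494812-143511720, minus strand), had 10.09, 9.45 and 10.41 FPKM in HMC-1.2. It had 15.36, 15.23 and 15.73 FPKM in HMC-1.1, 15.83, 16.02 and 15.63 FPKM in clone 1, and 16.7, 16.09 and 17.01 FPKM in clone 2. HMC-1.2 was below every library of the other groups. On the counts FUCA2 rose by 0.66 ± 0.04 in clone 1 (SE, edgeR adjusted p 6.3e-10), 0.76 ± 0.04 in clone 2 (SE, edgeR adjusted p 8.7e-11) and 0.63 ± 0.04 in HMC-1.1 (SE, edgeR adjusted p 1.2e-09) on the log2 scale. The 10 tested genes nearest to it on chromosome 6 had median log2 changes of 0.53 in clone 1, 0.12 in clone 2 and, for HMC-1.1, 0.49, and the part of this in the values of FUCA2 was not tested. Tested against 1.5-fold itself, the calls in clone 1 and HMC-1.1 were lost (glmTreat adjusted p 0.12 and 0.31) and the call in clone 2 was kept.

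HEXA (chr15:72340924-72376420, minus strand), the alpha subunit of beta-hexosaminidase A, is often used as a readout of mast cell granule release through its enzyme activity. It had 69.32, 70.36 and 70.75 FPKM in HMC-1.2 and 113.02, 117.71 and 112.69 FPKM in clone 1. HMC-1.1 had 99.05, 91.99 and 95.49 FPKM, and clone 2 had 75.77, 77.96 and 77.5 FPKM. The order from HMC-1.2 through clone 2 and HMC-1.1 to clone 1 held without overlap between libraries. The rise in clone 1 was 0.6 ± 0.04 on the log2 scale (SE, edgeR adjusted p 3.3e-10), or 1.52-fold, close to the fold threshold. It fell under the threshold without HMC-1.2 replicate 3 (0.58) or clone 1 replicate 2 (0.56). The change in clone 2 was 0.06 ± 0.04 (SE, edgeR adjusted p 0.22). HEXA overlaps another protein-coding gene on its own strand, and most of its expected counts were not whole, so the division of reads between overlapping genes is uncertain.

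Beta-mannosidase, MANBA (chr4:102630770-102760994, minus strand), showed the same order. It had 9.9, 9.99 and 10.33 FPKM in HMC-1.2, 15.15, 16.19 and 17.17 FPKM in clone 1, 13.61, 14.69 and 14.8 FPKM in HMC-1.1 and 10.59, 12.23 and 11.57 FPKM in clone 2. The log2 changes were 0.64 ± 0.05 in clone 1 (SE, edgeR adjusted p 7.5e-09), 0.49 in HMC-1.1 and 0.17 in clone 2, of which the rise in clone 1 alone was called. The 10 nearest tested genes on chromosome 4 had medians of 0.31 in clone 1, 0.31 in HMC-1.1 and 0.11 in clone 2, and their part was not tested. MANBA overlaps 5 processed pseudogenes. The alpha-glucosidase GAA, which breaks down glycogen, rose by 0.45 in clone 1, 0.26 in clone 2 and, for HMC-1.1, 0.23 on the log2 scale. FUCA1, MAN2B1 and GLB1 rose by 0.19 to 0.32 in clone 1, each under 1.5-fold.

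Alpha-galactosidase A, GLA (chrX:101393273-101408012, minus strand), the enzyme lacking in Fabry disease, parted the clones. It had 129.93, 128.59 and 135.17 FPKM in HMC-1.2, 112.74, 108.36 and 107.33 FPKM in clone 1 and 180.78, 185.76 and 170.24 FPKM in clone 2. HMC-1.1 had 120.73, 116.89 and 118.46 FPKM. The 4 groups did not overlap. GLA fell by 0.31 on the log2 scale in clone 1 (SE 0.04, edgeR adjusted p 3.0e-06) and rose by 0.41 in clone 2 (SE 0.04, edgeR adjusted p 9.9e-08), both under 1.5-fold against HMC-1.2. Between the clones the log2 difference was -0.72 ± 0.04 (clone 1 against clone 2, SE, edgeR adjusted p 1.4e-10). The 10 nearest tested genes on chromosome X differed by a median of -0.01 between the clones. GLA overlaps RPL36A on the other strand.

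The 7 enzymes of glycosaminoglycan breakdown moved in both directions. Alpha-N-acetylglucosaminidase, NAGLU (chr17:42536241-42544449, plus strand), a step in heparan sulfate breakdown, had 9.46, 10.8 and 10.02 FPKM in HMC-1.2 and 19.64, 21.56 and 18.23 FPKM in clone 1. HMC-1.1 had 15.84, 16.2 and 15.63 FPKM, and clone 2 had 15.73, 15.97 and 15.09 FPKM. HMC-1.2 was below all other libraries and clone 1 above them. NAGLU rose by 0.95 ± 0.06 on the log2 scale in clone 1 (SE, edgeR adjusted p 4.6e-10). It lay at the fold threshold in the other groups, with 0.6 in HMC-1.1 (1.51-fold, called) and 0.58 in clone 2 (1.5-fold after rounding, not called). The call in HMC-1.1 was lost without HMC-1.1 replicate 3 (0.58) or HMC-1.2 replicate 1 (0.55), with a term for libraries whose column names carry the word resent (0.56), and under glmTreat (adjusted p 1), and clone 2 gained the call under several settings. The 10 nearest tested genes had medians of -0.09, -0.08 and -0.20 in clone 1, clone 2 and HMC-1.1. NAGLU overlaps a long non-coding RNA gene on its own strand. Most of its expected counts were not whole, so the division of its reads between genes is uncertain.

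Alpha-L-iduronidase, IDUA (chr4:986997-1004564, plus strand), which cuts heparan and dermatan sulfate, had expected counts of 270, 269 and 258 in HMC-1.2, 493, 486 and 422 in clone 1, 364, 402 and 437 in HMC-1.1 and 333, 342 and 352 in clone 2. Its FPKM in clone 1 were 14.38, 10.26 and 8.21, more spread than the counts, against 5.83 to 6.57 FPKM in HMC-1.2. IDUA rose by 0.61 ± 0.09 on the log2 scale in clone 1 (SE, edgeR adjusted p 2.5e-05), and this fell under the fold threshold without HMC-1.2 replicate 1 (0.53) or clone 1 replicate 1 (0.56). IDUA overlaps SLC26A1 on the other strand, and whether the counting used strand is not given in the sources used here. The clone 2 change was 0.07 (edgeR adjusted p 0.56).

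SGSH (chr17:80206716-80220923, minus strand), the heparan sulfamidase, moved in opposite directions in the clones. It had 3.87, 4.47 and 4.71 FPKM in HMC-1.2, 5.1, 5.95 and 5.78 FPKM in clone 1, 3.04, 3.8 and 3.09 FPKM in clone 2 and 4, 4.14 and 4.88 FPKM in HMC-1.1. Clone 1 was above all other libraries and clone 2 below them. SGSH rose by 0.4 ± 0.08 on the log2 scale in clone 1 (SE, edgeR adjusted p 4.2e-04) and fell by 0.33 in clone 2 (SE 0.08, edgeR adjusted p 0.0035). Between the clones the log2 difference was 0.73 ± 0.08 (SE, edgeR adjusted p 1.2e-06). Tested against 1.5-fold itself, that difference was not called (glmTreat adjusted p 0.18). SGSH overlaps CARD14 and SLC26A11 on the other strand.

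Arylsulfatase B, ARSB (chr5:78777209-78986087, minus strand), which removes sulfate from dermatan and chondroitin sulfate, had 6.28, 6.08 and 5.7 FPKM in clone 2. HMC-1.2 had 3.09, 3.63 and 3.21 FPKM, clone 1 had 3.72, 3.01 and 3.87 FPKM, and HMC-1.1 had 4.18, 4.29 and 3.92 FPKM. Clone 2 was above all other libraries, and clone 1 overlapped HMC-1.2. ARSB rose by 0.94 ± 0.07 on the log2 scale in clone 2 (SE, edgeR adjusted p 1.0e-08), and the change in clone 1 was 0.13 ± 0.08 (SE, edgeR adjusted p 0.17). Between the clones the log2 difference was -0.81 ± 0.07 (clone 1 against clone 2, SE, edgeR adjusted p 7.5e-08). ARSB is 1 of the 8 members with CACGTG in a promoter window, at a start upstream of its other annotated start.

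GALNS and IDS, both sulfatases lacking in mucopolysaccharidoses, were lower outside HMC-1.2, each by under 1.5-fold. GALNS had a mean of 16.0 FPKM in HMC-1.2 and 11.6 to 12.1 FPKM in the other groups. Its log2 changes were -0.56 in clone 1, -0.5 in clone 2 and, for HMC-1.1, -0.57 (SE 0.05 in each). IDS had 34.9 FPKM in HMC-1.2 and fell by 0.58 in clone 1, 0.28 in clone 2 and, for HMC-1.1, 0.42 on the log2 scale. DESeq2 put IDS over 1.5-fold in clone 1. IDS overlaps another protein-coding gene on its own strand. Its expected counts were whole in no library, so the division of its reads between genes is uncertain. The beta-glucuronidase GUSB, at 28.5 to 31.1 FPKM, passed the adjusted p in none of the 3 comparisons.

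None of the 8 genes of lipid breakdown was called. GM2A, the activator protein that presents ganglioside GM2 to beta-hexosaminidase A, had 43.25, 41.47 and 41.4 FPKM in HMC-1.2 and 62.29, 63.09 and 63.73 FPKM in clone 1. HMC-1.1 had 52.95 to 56.8 FPKM and clone 2 had 43.23 to 46.67 FPKM. HMC-1.2 and clone 2 overlapped and the other 2 groups did not. GM2A rose by 0.54 ± 0.04 in clone 1 (SE, edgeR adjusted p 1.7e-09) and 0.34 in HMC-1.1 on the log2 scale, and its change in clone 2 was 0.08 (edgeR adjusted p 0.079). The acid ceramidase ASAH1 rose by 0.41 in clone 1 and by 0.15 in HMC-1.1 on the log2 scale. Its change in clone 2 was -0.08 (edgeR adjusted p just under 0.05), in the opposite direction to clone 1.

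LIPA, the acid lipase, and PPT1, which removes palmitate from proteins, rose most in clone 2, by 0.3 and 0.29 on the log2 scale. Their changes in clone 1 were 0.05 and 0.09. NPC2 rose by 0.14 in clone 1, 0.22 in clone 2 and, for HMC-1.1, 0.18. PSAP had 335.99 to 345.25 FPKM in HMC-1.2 and log2 changes of -0.05, -0.09 and -0.14 in clone 1, clone 2 and HMC-1.1. The sulfatidase ARSA fell by 0.28 in clone 2, and the acid sphingomyelinase SMPD1 fell by 0.32 in HMC-1.1.

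**Figure D4:**
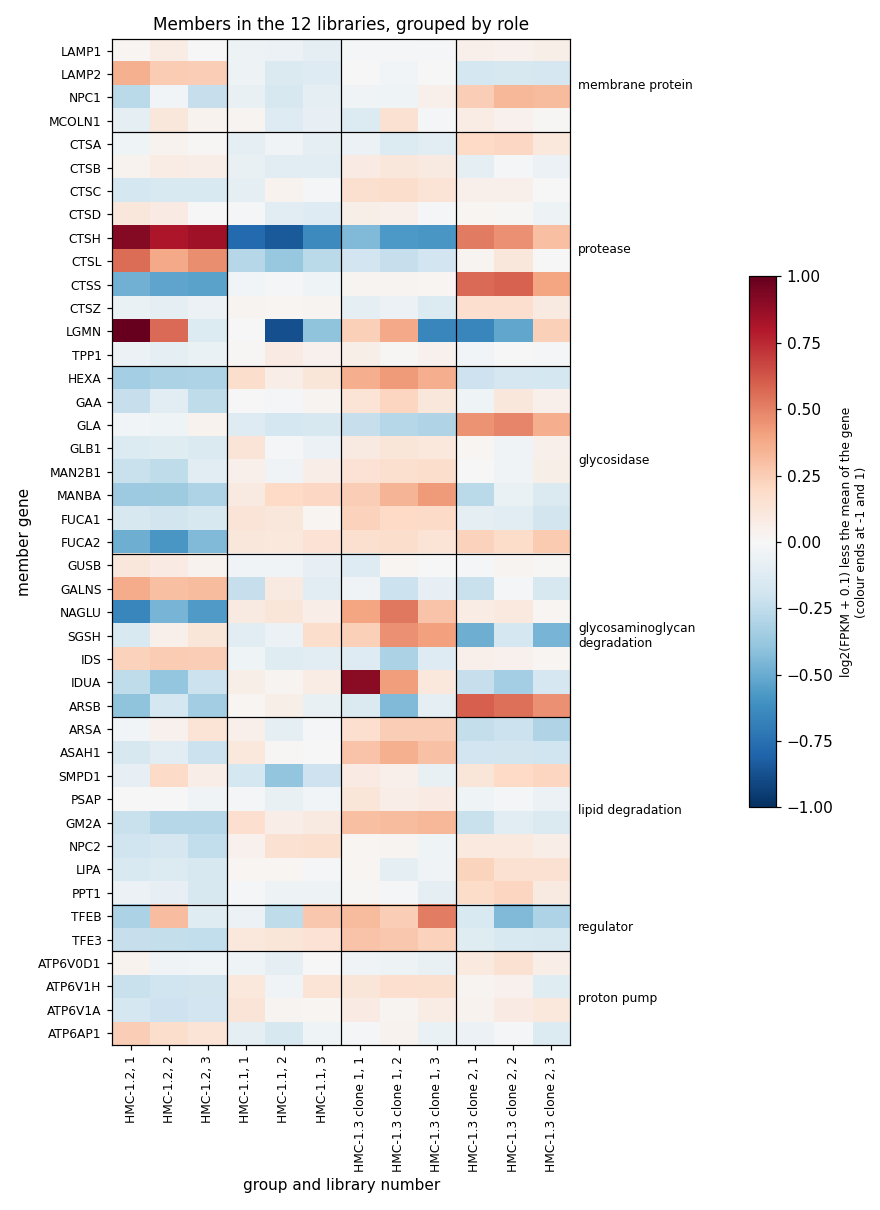
Log2(FPKM + 0.1) of each of the 43 members (rows, grouped by role) in each of the 12 libraries (columns), less the mean of the gene over the libraries; red is above the mean, blue below, and the colour ends at -1 and 1. CTSH and CTSL are red in HMC-1.2, HEXA, GM2A, ASAH1 and TFE3 are red in clone 1, CTSS, GLA and ARSB are red in clone 2, and LGMN varies among libraries of 1 group.

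The regulators were both higher in clone 1. TFE3 (chrX:49028726-49043410, minus strand) had 22.41, 22.3 and 22.12 FPKM in HMC-1.2 and 32.09, 31.82 and 30.83 FPKM in clone 1. HMC-1.1 had 28.35, 28.56 and 29.13 FPKM, and clone 2 had 24.14, 23.64 and 23.53 FPKM. The groups did not overlap. TFE3 rose by 0.45 ± 0.03 on the log2 scale in clone 1 (SE, edgeR adjusted p 6.1e-09) and 0.33 ± 0.03 in HMC-1.1 (SE, edgeR adjusted p 3.7e-07), both under 1.5-fold, and its change in clone 2 was 0.08 (edgeR adjusted p 0.072).

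TFEB (chr6:41683978-41736259, minus strand) was low, with expected counts of 175 to 304 per library. It had 2.84, 4.44 and 3.26 FPKM in HMC-1.2, 4.45, 4.24 and 5.11 FPKM in clone 1, 3.19, 2.59 and 2.86 FPKM in clone 2 and 3.42, 2.96 and 4.31 FPKM in HMC-1.1. Clone 1 overlapped HMC-1.2 and HMC-1.1 in FPKM and lay above clone 2. On the counts TFEB rose by 0.49 ± 0.11 on the log2 scale in clone 1 (SE, edgeR adjusted p 8.7e-04), with changes of -0.08 in clone 2 (edgeR adjusted p 0.57) and 0.2 in HMC-1.1 (edgeR adjusted p 0.14). The difference between the clones was 0.58 ± 0.11 (SE, edgeR adjusted p 2.6e-04), or 1.49-fold, and it was over 1.5-fold without clone 1 replicate 2 (0.6) or clone 2 replicate 1 (0.63). These are transcript levels, and the location or activity of the proteins was not measured here.

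The 8 members with CACGTG in the windows shown are set beside the transcripts of TFEB and TFE3, with no test. In clone 1 their median log2 change was -0.08, from -0.56 for GALNS to 0.45 for GAA, against a median of 0.12 for the 22 members whose windows had no match. In clone 2 the medians were 0.03 and 0.09, and in HMC-1.1 they were -0.12 and 0.11. LAMP1, with the most matches, had log2 changes of -0.1, 0 and -0.14, and MCOLN1, with 2 TCACGTGA matches, had -0.06, -0.02 and -0.1 in clone 1, clone 2 and HMC-1.1. GAA, also with 2 TCACGTGA matches, rose by 0.45, 0.26 and 0.23 in the same order. The windows cover a short stretch around annotated starts and say nothing of sites elsewhere.

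The 4 members that belong to the proton pump, the V-type ATPase, stayed within 1.5-fold, and its other subunits are given below. ATP6V1A, which binds ATP, and ATP6V1H, a regulatory subunit, rose by 0.19 and 0.25 in clone 1, 0.25 and 0.14 in clone 2, and 0.21 and 0.19 in HMC-1.1 on the log2 scale. The accessory subunit ATP6AP1 fell by 0.26, 0.29 and 0.33 in the same order. ATP6V0D1, a subunit of the membrane sector with means of 114 to 127 FPKM, lay within 0.2 of 0 on the log2 scale in all 3 comparisons.

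Summed over members, the levels were close. The 43 members summed to 2714 ± 28.7 FPKM in HMC-1.2 and 2691 ± 22.5 FPKM in HMC-1.1, against 2824 ± 32.6 FPKM in clone 1 and 2913 ± 65.9 FPKM in clone 2 (SD, n = 3). That is 0.373% to 0.405% of all FPKM, as group means. By role, the protease sum was 976.1 ± 36.4 FPKM in clone 2 and 929 ± 15.3 FPKM in HMC-1.2, against 851.6 ± 12 FPKM in clone 1 and 808.2 ± 2.05 FPKM in HMC-1.1 (SD, n = 3). The glycosidase sum was lowest in HMC-1.2 with 335.8 ± 5.36 FPKM, against 376.4 ± 8.04 FPKM in HMC-1.1, 399.9 ± 3.88 FPKM in clone 1 and 411.3 ± 7.16 FPKM in clone 2 (SD, n = 3). No test was made of the sums, which weigh members by their level. In clone 1 most FPKM ratios to HMC-1.2 lay above the changes on counts. For PSAP, the largest term, the log2 values were 0.1 by FPKM and -0.05 by counts.

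**Figure D5:**
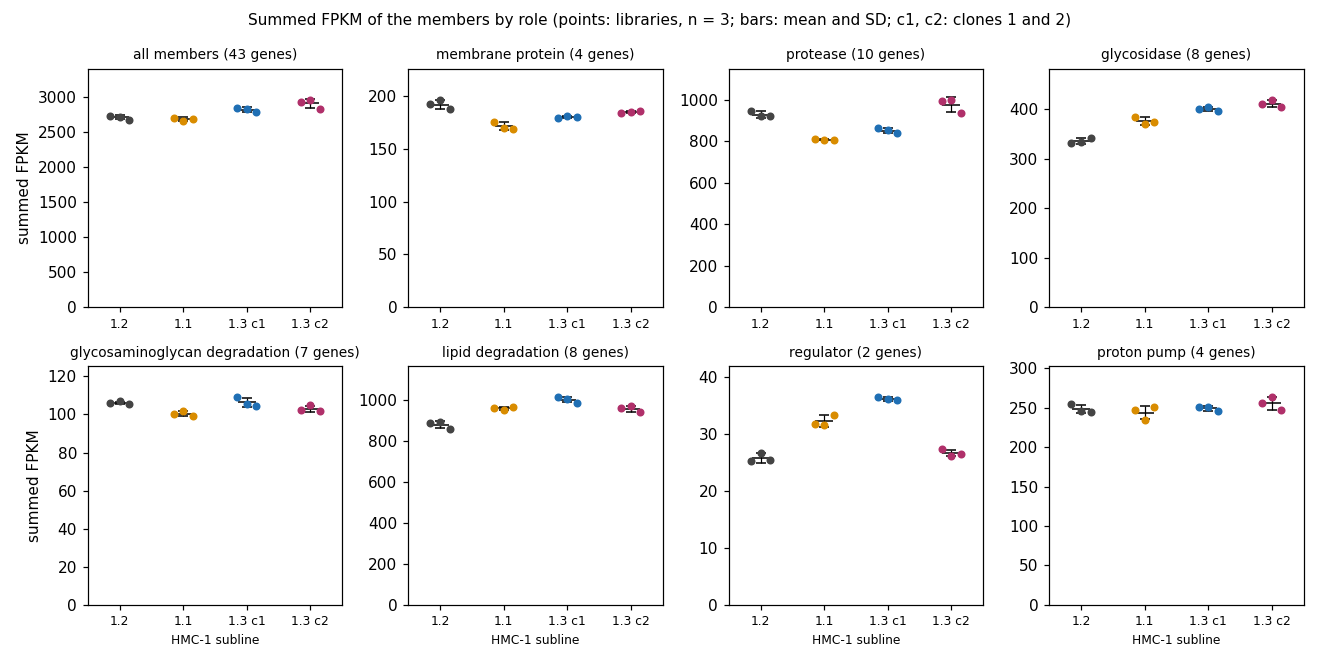
Summed FPKM (y axes, from 0) of all 43 members and of the members of each role, by subline on the x axis (points: libraries, n = 3 a group; bars: mean and SD). The glycosidase libraries of HMC-1.2 lie below those of the other groups, and the sum of the regulators TFEB and TFE3 is highest in clone 1, at 36.18 FPKM.

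Compared directly, the clones differed in 4 members, against 12.6% of all genes called between them. CTSH was 0.517 times as high in clone 1 as in clone 2 (log2 difference -0.95 ± 0.07, SE, edgeR adjusted p 4.9e-09), and GLA, ARSB and SGSH are given above. Beside TFEB, clone 1 also differed from clone 2 under 1.5-fold in HEXA (0.54), IDUA (0.54), ASAH1 (0.49), MANBA (0.47) and GM2A (0.45), all higher in clone 1, and in CTSS (-0.52), lower in clone 1, with adjusted p of 1.1e-04 or less by edgeR. The median absolute log2 difference between the clones was 0.25 for the members and 0.22 for all genes.

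Clone 1 and HMC-1.1 differed little over all genes, members included: the median absolute log2 difference was 0.12 for the members and 0.12 for all genes. No member was called between them by edgeR, against 1.01% of all genes; 25 members had an unadjusted p under 0.05, none with over 1.5-fold, and DESeq2 and limma also called 0. The log2 differences ran from -0.23 for ARSB to 0.36, and their median was 0.1. Between clone 2 and HMC-1.1, CTSH was higher by 1.17 ± 0.07 on the log2 scale (SE, edgeR adjusted p 6.9e-10) and GLA by 0.6 ± 0.04 (SE, edgeR adjusted p 2.1e-09), 2 members against 8.19% of all genes. The GLA value fell under 1.5-fold without HMC-1.1 replicate 2 (0.58) or clone 2 replicate 2 (0.57).

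Of 75 other lysosomal genes, 72 were tested. In clone 1 against HMC-1.2, 24 of them were higher and 32 lower at the adjusted p, with 3 called in each direction, while 59.4% of all genes passed the adjusted p and 20.0% were called. In clone 2, 23 were higher and 24 lower, with 1 called higher and 7 lower, against 48.5% of all genes past the adjusted p and 16.5% called. CD68, a lysosomal membrane protein of myeloid cells, had 18.32, 12.29 and 13.31 FPKM in HMC-1.2 and 3.66 to 5.3 FPKM elsewhere. It was called lower in both clones, with log2 changes of -1.61 in clone 1, -1.71 in clone 2 and, for HMC-1.1, -1.92 (SE 0.1 in each). Its expected counts were whole in no library, so the division of its reads between genes is uncertain.

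Among the other lysosomal genes called lower in clone 2 and not in clone 1 were GGA2, an adaptor that sorts mannose 6-phosphate receptors, and LAMTOR2, a subunit of the Ragulator complex. GGA2 had 2.95, 3.05 and 2.65 FPKM in clone 2, against 6.83 to 9.78 FPKM in the other groups, and was 3.02 times as high in clone 1 as in clone 2 (log2 difference 1.6 ± 0.06, SE, edgeR adjusted p 1.4e-12). LAMTOR2 had 59.11, 59.51 and 50.72 FPKM in clone 2 against 107.27 to 129.88 FPKM elsewhere, with a log2 difference of 1.16 ± 0.07 between the clones (SE, edgeR adjusted p 2.8e-10). Both were chosen after their values were seen. Of the 13 other proton pump subunits tested, 9 were lower and 2 higher in clone 1 at the adjusted p, which 59.4% of all genes passed. In clone 2, 7 were lower and 1 higher, against 48.5%, and in HMC-1.1, 10 were lower and 1 higher, against 53.7%. Of the 13, 0, 1 and 1 were called lower in the same order, against 8.18%, 8.51% and 7.52% of all genes. ATP6V0A2, also chosen after its values were seen, had a mean of 68 FPKM in HMC-1.2 and 30.7 to 40.9 FPKM elsewhere. Its fall in clone 1 was smaller on counts than by FPKM. On counts, none of the 13 fell by more than 0.48 on the log2 scale in clone 1.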

How the data were processed

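RNA-seq libraries of 4 groups of HMC-1 cells (12 libraries) were analysed. The submitters' processing notes name cutadapt 2.10, STAR 2.5.3, Picard, RSEM 1.3.0 and DESeq2, with hg38 as the build. Per gene, the authors gave RSEM's expected counts, with no normalization, of which 7.39% were not whole because reads matching several genes are shared out. They were deposited beside FPKM, which correct for transcript length and for sequencing depth.

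Groups came from the sample titles. Counts were rounded, genes kept by filterByExpr (15944 of 58381), and edgeR 4.0.16 (R 4.3.3) was used with TMM factors (0.974 to 1.024) and its quasi-likelihood test, with the 4 groups in 1 model over all libraries and Benjamini-Hochberg adjustment over all genes tested. Called means an adjusted p under 0.05 and a change over 1.5-fold. Fold changes come from counts, while levels are FPKM as deposited, with SD over 3 libraries. Total counts ranged from 29225900 to 43181402. Standard errors of fold changes come from the quasi-likelihood fit and cover counting error and the estimated spread between these libraries. Positions are those of Gencode 44 on GRCh38. On simulated counts for clone 1 against HMC-1.2 (15944 genes, 200 changed), edgeR recovered 167 with 4 false calls and DESeq2 168 with 1. For limma, log2(CPM + 1) of the simulated counts stood in for FPKM, and it recovered 164 with 1. In the real comparison far more genes, 3193, were called by edgeR.

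The members, the lists and the tests were chosen with earlier results of these data known. Values in every library were given for members called in both HMC-1.3 clones in 1 direction, members called between the clones, TFEB and TFE3. Those of the other called members and of a few more were added after their values were seen. Alternatives were DESeq2 1.42.0, library size only, other filters, the compared groups alone, a replicate block, a term for libraries whose column names carry the word resent, glmTreat, limma 3.58.1 on FPKM, CPM for levels, and leaving out each library. Figures were drawn with matplotlib.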

Additional observations from a re-analysis of the deposited data

Results flagged for a closer look

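The change against HMC-1.2 differed between the HMC-1.3 clones for 4 members, by edgeR's test of clone 1 against clone 2. As log2 change in clone 1 less that in clone 2, the value was -0.95 for CTSH (higher in 3 of 3 clone 2 libraries than in any clone 1 library, edgeR adjusted p 4.9e-09). It was -0.81 for ARSB (edgeR adjusted p 7.5e-08) and -0.72 for GLA (edgeR adjusted p 1.4e-10), both also higher in 3 of 3 clone 2 libraries. It was 0.73 for SGSH (edgeR adjusted p 1.2e-06), higher in 3 of 3 clone 1 libraries. With 3 libraries a group, single outlying libraries were not tested for.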

How the results depend on the processing

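Of 30 log2 fold changes of named members followed through the alternatives, none reversed. Of 478 values under alternatives, 449 stayed on the same side of the threshold, 25 lost the call and 4, all of TFEB between the clones, gained it. The count of members called in clone 1 against HMC-1.2 (8) was 3 when tested against 1.5-fold itself by glmTreat and 6 to 9 with 1 library left out. Between HMC-1.1 and HMC-1.2 (5) it was 3 by glmTreat and 3 by limma on log2(FPKM + 1), and 4 to 6 with 1 library left out. In clone 2 against HMC-1.2 (3) it was 3 to 5 with 1 library left out, reaching 5 without HMC-1.2 replicate 2 or clone 2 replicate 3. In clone 2 against HMC-1.1 (2) it was 1 by glmTreat and 1 to 3 with 1 library left out, falling to 1 without clone 2 replicate 2. The count called in both clones in 1 direction (1) was 0 by glmTreat, and 2 with library size only, with no filter on low counts, with the compared groups alone in the fit, and by limma on log2(FPKM + 0.1), NAGLU joining FUCA2 in each. It ran from 1 to 3 with 1 library left out, at 2 without HMC-1.2 replicate 2 or clone 2 replicate 1 and 3 without clone 2 replicate 3. A stricter test of size makes fewer calls by construction. For the other settings the cause was not tested. Between the clones the count (4) was 3 to 6, and between clone 1 and HMC-1.1 it was 0 throughout. With the group mean of each gene taken off, same-numbered libraries correlated between -0.04 and 0.10, so the numbers were not taken as pairs. With the replicate block the counts were 8, 3, 5, 4, 0, 2 and 1, as without it. LGMN was not tested with a minimum of 1 CPM in 3 libraries, and its few reads limit what can be said of it.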
